A study of Mus musculus with 4 samples.

Results

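Genes of 4 solute carrier families were followed in the open chromatin of bile duct-ligated mouse liver: Slc2, Slc5, Slc16 and Slc22. A gene was taken when its symbol had the form of a family name, the letter a and a number, and when at least 1 promoter or distal ATAC peak on chromosomes 1 to 19, X or Y was assigned to it in either library. This gave 58 of the 25458 genes with a peak, of which 12 belonged to Slc2, 8 to Slc5, 13 to Slc16 and 25 to Slc22. A further 4 symbols of the same form in RefSeq, Slc5a2, Slc5a7, Slc5a8 and Slc16a4, had no peak assigned. Both groups were mouse livers after bile duct ligation, a surgical model of cholestasis and fibrosis. The genotype was wild type in the first group and Mertk knockout in the second, and each had 1 ATAC library, prepared from nuclei of frozen tissue. The RNA library of the same nuclei served only for counts per barcode. The sources used here do not give the strain, sex, age, time after ligation, number of animals, or the nature of the Mertk allele. Mertk encodes a receptor that phagocytes use to engulf dying cells.

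Solute carriers move small molecules across membranes. Slc2 genes encode facilitative sugar transporters (GLUT proteins), which let glucose or fructose follow their gradients. Slc5 genes encode carriers driven by the sodium gradient, for sugars, myo-inositol, iodide and vitamins. Slc16 genes encode monocarboxylate transporters (MCT proteins), which carry lactate, pyruvate and ketone bodies with a proton, and relatives that carry aromatic amino acids or creatine. Slc22 genes encode carriers of organic cations, organic anions, urate and carnitine, through which liver and kidney take up many drugs and metabolites. Hepatocytes use GLUT2 (Slc2a2) for glucose and OAT2 (Slc22a7) for organic anions. Leukocytes rely on GLUT1 and GLUT3 (Slc2a1, Slc2a3).

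The libraries differed in depth and in their general yield of peaks. ATAC fragments in called nuclei came to 40858512 for wild type and 83996145 for knockout, and the lists held 72302 and 106319 peaks of mean width 855 and 859 bp. Mertk itself had 10 wild-type and 13 knockout peaks, with a promoter peak in both, which does not check the genotype. Markers of cell types also differed. The 10 hepatocyte markers had 16 wild-type and 90 knockout peaks, and Alb, Cps1, Serpina1a and Cyp2e1 had 0 in the wild-type library. Of the 10, 9 had more knockout peaks and Ttr had fewer (4 and 3). The 6 stellate cell markers had 8 and 57 peaks, with Des at 0 in the wild-type library. The 8 leukocyte markers had 43 and 39, with no peak at Cd79a in either library. Fewer knockout peaks were found for 2 of them, Itgam (15 and 8) and Ptprc (9 and 7). Csf1r (8 and 10), Spi1 (5 and 7) and Coro1a (3 and 4) had more, and Lyz2 and Cd3e had equal numbers. The 4 endothelial markers had 49 and 86 peaks, and the 4 cholangiocyte markers 4 and 5, with Krt7 at 0 in both libraries and Sox9 at 0 in the wild-type library. Among the latter Epcam had fewer knockout peaks (3 and 2), Sox9 more (0 and 2) and Krt19 equal numbers (1 and 1). The part of depth, of the share of fragments in peaks or of cell composition in the values below was not tested. More cells of a type and more accessible chromatin per cell cannot be told apart in these lists.

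The transporter genes had more peaks in the knockout library, and the organic ion carriers of Slc22 had the widest gap. All 58 genes had a peak in the knockout library and 47 in the wild-type library. The 11 genes without a wild-type peak were 9 of Slc22 and Slc5a5 and Slc5a12. Over all genes with a peak, 13.0% had none in the wild-type library. More peaks in the knockout library were found for 46 of the 58 genes (79.3%, against 60.3% of all genes). Fewer were found for 5, namely Slc2a3, Slc2a4, Slc2a6, Slc2a9 and Slc16a14 (16.2% of all genes had fewer). The other 7 had equal numbers. At least 4 knockout peaks against 0 wild-type peaks were found for 6 genes, Slc22a3, Slc22a6, Slc22a7, Slc22a22, Slc22a26 and Slc22a30 (2.61% of all genes). The reverse was found for 0 of the 58 (0.110% of all genes).

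**Figure D1:**
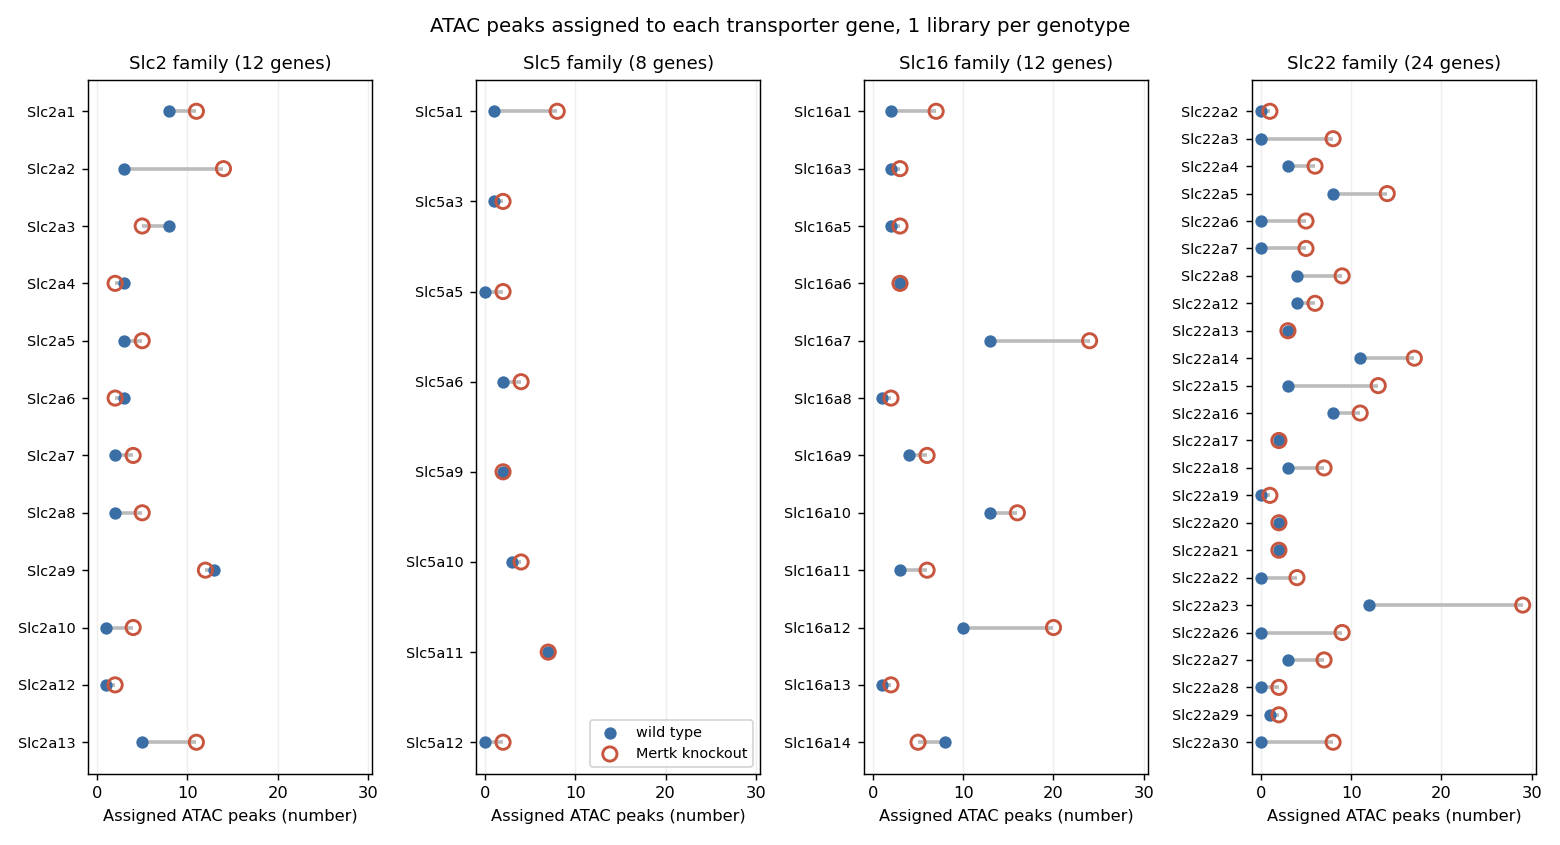
Number of ATAC peaks assigned to 56 transporter genes (x axis) in the wild-type (filled) and Mertk knockout (open) library, 1 library per genotype, by family. Slc22a23 has the most knockout peaks (29), and Slc2a3 and Slc16a14, each with 8 wild-type and 5 knockout peaks, lie in the opposite direction.

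Counted once each, the wild-type library had 201 peaks for the 58 genes and the knockout library 390, 1.94 times as many, against 1.47 times over all peaks assigned to a gene. By family the wild-type and knockout numbers were 51 and 75 for Slc2, 16 and 31 for Slc5, 68 and 116 for Slc16, and 66 and 168 for Slc22. Slc2 thus had the same ratio as all genes (1.47), and Slc22 had 2.55. Most wild-type peaks had a counterpart. A peak counted as shared if the opposite list held a peak touching it over 1 bp or more, and 140 of 201 wild-type peaks were shared (69.7%, exact 95% interval 62.8% to 75.9%), close to the 72.5% over all genes. Of the 390 knockout peaks 139 were shared (35.6%, 30.9% to 40.6%), against 49.5% over all genes. These intervals cover counting error only. The share of knockout peaks with a wild-type counterpart was 46.7% in Slc2, 38.7% in Slc5, 36.2% in Slc16 and 29.8% in Slc22. Peaks found in the knockout library alone were as wide as shared ones, with medians of 879 and 878 bp.

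Peaks lay mostly within the genes in both libraries. Of 206 wild-type assignments of a peak to a gene, 129 (62.6%) lay in the RefSeq gene, 25 within 10 kb of it and 52 farther away. Of 401 knockout assignments the numbers were 249 (62.1%), 42 and 110. The share of knockout assignments with a wild-type counterpart was 36.5% in genes, 38.1% within 10 kb and 31.8% beyond. The surplus of knockout peaks was therefore present at all 3 distances. Shares by distance were not computed over all genes, where 49.5% of knockout peaks at any distance were shared.

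To weigh genes with many and few peaks on 1 scale, the lengths of the assigned peaks were summed. Knockout length was divided by wild-type length on the log2 scale after adding 1 kb to each, and the ratio was centred on the median over the 14692 genes with a mean of at least 2 kb, which was 0.39. A gene at or beyond 1 was called higher and at or beyond -1 lower. This is a rule of size, not a test, since 1 library per genotype gives no replicate error. Of the 58 genes 41 reached the length minimum, and 9 of them were higher and 0 lower. Over all genes 10.3% were higher and 4.08% lower. The 9 included Slc2a2, Slc5a1 and, from Slc22, Slc22a3, Slc22a6, Slc22a7, Slc22a15, Slc22a26 and Slc22a30. Of these, Slc22a3, Slc22a6, Slc22a7, Slc22a26 and Slc22a30 are listed at 0 in the wild-type library, so they could reach the minimum only by being higher.

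The median centred ratio of the 41 genes was 0.42, and 32 of them lay above the median gene. By family it was 0.41 for Slc2 (9 measured genes), 0.08 for Slc5 (4), 0.14 for Slc16 (11) and 0.61 for Slc22 (17), beside quartiles of -0.38 and 0.45 over all genes. The 5 Slc22 genes listed at 0 had to lie above the median gene. Over the 36 measured genes with a wild-type peak, 4 were higher (11.1%, against 7.60% of all measured genes with a wild-type peak) and the median was 0.34. Over the 12 such genes of Slc22, 1 was higher (Slc22a15), 11 lay above the median gene, and the median was 0.47. The exception was Slc22a13 at -0.41. Its 3 wild-type and 3 knockout peaks all lay more than 10 kb outside the RefSeq gene and were also assigned to another gene. By a split made after the values were seen, the 10 measured Slc22 genes outside the gene clusters on chromosomes 17 and 19 had a median of 0.36, with 2 higher, which is below the median of Slc2. The family medians of Slc2, Slc5 and Slc16 moved with the processing and changed sign in some alternative settings. Slc2a3 and Slc16a14, both at -0.99, lay just short of the lower limit and passed it in 5 of the 11 alternative settings each.

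**Figure D2:**
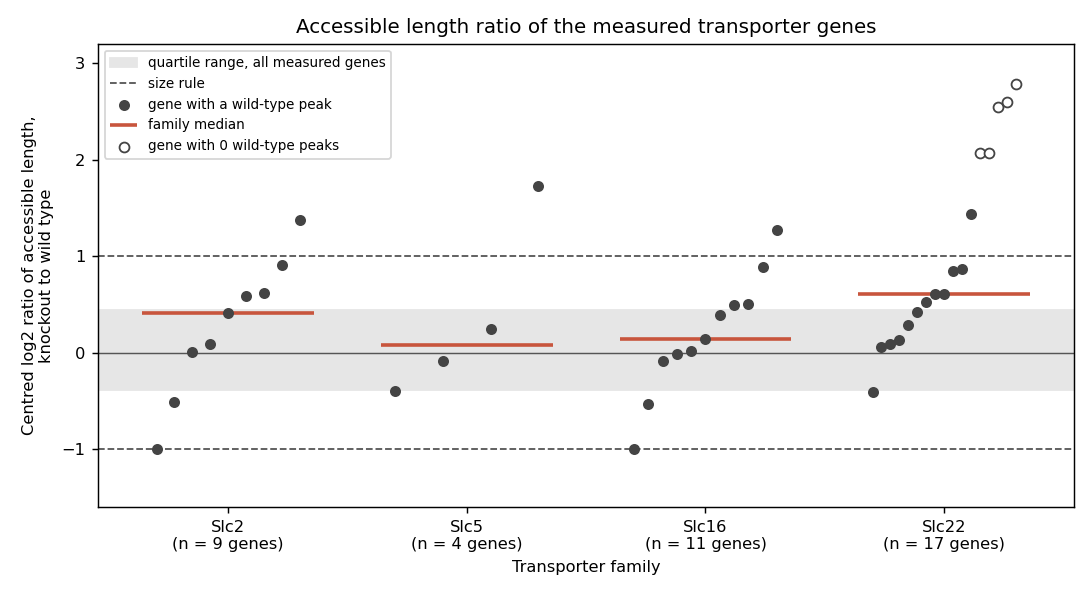
Summed peak length, knockout against wild type, as a centred log2 ratio (y axis) for the 41 measured transporter genes by family, with the family median (line), the quartile range of all measured genes (band) and the limits of the size rule (dashed). Slc22 has the highest median, 0.61, which includes its 5 highest genes (open points). These have 0 wild-type peaks, so their heights rest on the pseudocount.

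Promoters were compared next, as the peaks that the authors' annotation calls promoter. Of the 58 genes, 28 had such a peak in each library, 8 had it only in the knockout list, 1 only in the wild-type list and 21 in neither. Of the 37 genes with a promoter peak in either library, the knockout library alone thus held 21.6%, against 15.4% over all genes. The reverse was true of 1 of 37, against 3.17% over all genes. Within Slc22 it was 6 of 14, among them Slc22a3, Slc22a7, Slc22a26, Slc22a27 and Slc22a30. The other families together had 2 of 23, Slc2a12 and Slc16a5. None of these 8 knockout promoter peaks was touched by a wild-type peak of any kind.

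The promoters open in the knockout library alone were poor in CpG dinucleotides, and those open in both were rich in them. RefSeq promoter windows (GRCm38.p6, 250 bases before to 50 after the start) were at hand for 46 of the 58 genes, 49 windows in all. Of these, 19 were touched by a peak of both libraries, 5 by a knockout peak alone, 1 by a wild-type peak alone and 24 by neither. Over all 32851 windows the shares were similar, with 8.33% touched in the knockout library alone against 10.2% of the transporter windows. The 19 windows open in both held a median of 26 CpGs (range 2 to 42) and a median GC content of 66.0%. The 5 open in the knockout library alone held 6 (Slc2a12), 5 (Slc22a3), 4 (Slc22a27), 1 (Slc22a26) and 0 (Slc22a30), and their GC content ran from 27.7% to 52.0%. The ranges overlap through Slc22a18, which has 2 CpGs and is open in both. All windows of the genome show the same order, with medians of 21 CpGs where both libraries had a peak and 7 where the knockout library alone did, so the pattern is not particular to these genes.

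**Figure D3:**
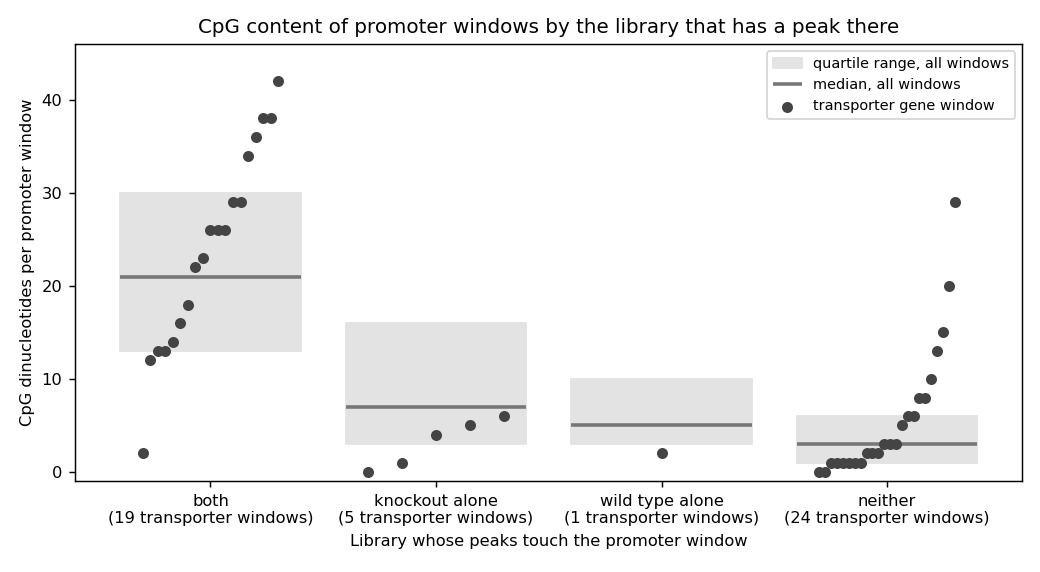
Number of CpG dinucleotides in each 300-base promoter window (y axis) by the library whose peaks touch it (x axis), for transporter genes (points) and all RefSeq windows (band, quartiles; line, median). The 5 windows touched in the knockout library alone hold 0 to 6 CpGs, and 18 of the 19 touched in both hold 12 or more.

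The contrast can be read in the sequences, printed 5′ to 3′ on the gene's strand with each CpG in capitals. Slc16a1 (MCT1; chr3:104638414-104638713, plus strand) stands for promoters open in both libraries, and peaks of both covered all 300 bases. Slc22a3 (chr17:12507655-12507954, minus strand), Slc22a26 (chr19:7802618-7802917, minus strand) and Slc22a30 (chr19:8405056-8405355, minus strand) were covered over all 300 bases by a knockout peak and by no wild-type peak.
Slc16a1: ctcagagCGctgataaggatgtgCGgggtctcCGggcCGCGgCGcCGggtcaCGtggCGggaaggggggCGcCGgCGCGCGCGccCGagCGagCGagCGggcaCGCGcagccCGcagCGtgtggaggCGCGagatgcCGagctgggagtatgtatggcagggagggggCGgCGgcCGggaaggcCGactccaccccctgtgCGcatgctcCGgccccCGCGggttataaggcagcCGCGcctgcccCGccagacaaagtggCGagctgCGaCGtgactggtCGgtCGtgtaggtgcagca
Slc22a3: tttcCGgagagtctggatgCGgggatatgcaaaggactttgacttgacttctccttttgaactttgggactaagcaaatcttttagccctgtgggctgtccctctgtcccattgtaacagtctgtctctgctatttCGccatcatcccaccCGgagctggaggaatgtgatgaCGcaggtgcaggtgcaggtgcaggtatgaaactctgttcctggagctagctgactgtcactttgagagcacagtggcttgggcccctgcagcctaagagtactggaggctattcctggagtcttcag
Slc22a26: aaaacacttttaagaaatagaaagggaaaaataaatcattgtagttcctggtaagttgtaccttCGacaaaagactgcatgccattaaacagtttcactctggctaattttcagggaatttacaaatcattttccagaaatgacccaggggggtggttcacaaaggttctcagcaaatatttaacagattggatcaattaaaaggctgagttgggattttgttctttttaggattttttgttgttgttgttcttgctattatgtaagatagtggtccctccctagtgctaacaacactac
Slc22a30: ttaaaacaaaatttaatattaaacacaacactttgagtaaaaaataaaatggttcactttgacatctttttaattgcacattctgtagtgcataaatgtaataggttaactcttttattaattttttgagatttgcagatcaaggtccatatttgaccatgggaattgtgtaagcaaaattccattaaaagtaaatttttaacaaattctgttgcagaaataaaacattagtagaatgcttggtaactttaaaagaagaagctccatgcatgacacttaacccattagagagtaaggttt

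Motif letters were searched on both strands of the windows. GGGCGG, the core of Sp and KLF factor sites, was in 15 of the 19 windows open in both libraries and in 0 of the 5 open in the knockout library alone. Over all windows it was in 64.9% and 34.8% of these classes. CCAAT, the NF-Y core, was in 6 of the 19 and 1 of the 5 (Slc22a26), and over all windows in 37.4% and 35.1% of these classes. TATAAA was in 1 of the 19 and 0 of the 5, and over all windows in 6.31% and 12.9% of the classes. CACGTG was in 3 and 0, against 10.3% and 6.61%. Of the letters that hepatocyte factors bind, the HNF4A repeat CAAAGTCCA was in none of the 49 windows (0.475% of all). GTTAAT, 1 arm of the HNF1 palindrome, was in 5, those of Slc16a10, Slc5a10, Slc22a6, Slc22a8 and Slc22a29 (7.10% of all). The full HNF1 palindrome was in none of the 49, and 3 of all windows held it. These are matches of letters, not sites.

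Among the Slc2 sugar transporters, Slc2a2 had more accessible length in the knockout library and Slc2a3 less. Slc2a2, the GLUT2 gene of hepatocytes and beta cells (chromosome 3, 28697903 to 28728361), had 3 wild-type peaks (2.68 kb) and 14 knockout peaks (11.5 kb), a centred log2 ratio of 1.37. None of the wild-type peaks lay in the gene: they were 11.7, 111.5 and 153.7 kb from it, and those at 11.7 and 153.7 kb were shared. In the knockout library 8 peaks lay within the gene, none with a wild-type counterpart. The authors' annotation gave neither library a promoter peak, since the nearest knockout peak (28698149 to 28699018) begins past the start. The RefSeq promoter window of Slc2a2 (chr3:28697653-28697952, plus strand), shown because the gene is open on both sides of it in the knockout library while no peak touches it, has 2 CpGs.
Slc2a2: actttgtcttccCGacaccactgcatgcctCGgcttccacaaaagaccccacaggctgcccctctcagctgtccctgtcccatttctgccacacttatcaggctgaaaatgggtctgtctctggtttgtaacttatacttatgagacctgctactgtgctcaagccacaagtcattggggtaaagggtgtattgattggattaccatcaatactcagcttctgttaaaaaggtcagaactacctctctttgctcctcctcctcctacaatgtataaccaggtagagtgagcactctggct

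Of the 14 knockout peaks of Slc2a2, 9 were also assigned to a neighbour, Tnik or 1700112D23Rik. With only peaks assigned to 1 gene its ratio was 1.08. It lay beyond the size rule in 9 of 10 alternatives, and at 0.99 when the knockout list was limited to its widest peaks.

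Slc2a3, the GLUT3 gene of neurons and leukocytes (chromosome 6, 122727809 to 122802363), had 8 wild-type peaks (6.98 kb) and 5 knockout peaks (4.27 kb), a ratio of -0.99. All lay within the gene and none was shared with another gene. The promoter peak and 2 others were common to both libraries. Of the 5 peaks in the wild-type library alone, 4 lay next to each other between 122755661 and 122763762, a stretch with no knockout peak. Slc2a1 (GLUT1), which supplies activated leukocytes, had 8 and 11 peaks, 7 of them shared in each library, and lay at the median gene (0.01).

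Slc2a9, a urate carrier of hepatocytes and kidney (chromosome 5, 38349272 to 38503147), had 13 and 12 peaks and a ratio of -0.51. It had 3 promoter peaks in each library, and they were not the same 3. Peaks at 38479826 to 38480755 and 38502825 to 38503686 in the knockout library had wild-type counterparts. The wild-type promoter peak at 38483234 to 38484027 and the knockout promoter peak at 38491603 to 38492478 did not overlap a peak of the other library. The window at the wild-type peak (chr5:38483336-38483635, minus strand) is the only 1 of the 49 transporter windows touched in the wild-type library alone, and has 2 CpGs.
Slc2a9: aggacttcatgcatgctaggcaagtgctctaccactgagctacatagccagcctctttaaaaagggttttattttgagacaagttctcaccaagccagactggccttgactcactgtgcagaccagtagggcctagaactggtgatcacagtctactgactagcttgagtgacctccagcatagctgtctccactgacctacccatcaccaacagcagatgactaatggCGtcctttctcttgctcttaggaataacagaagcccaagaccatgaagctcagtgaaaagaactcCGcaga

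The other Slc2 genes lay within the size rule or under the minimum. Slc2a10 had 1 and 4 peaks (0.91) and Slc2a13, which carries myo-inositol with protons, 5 and 11 (0.62), with all 5 wild-type peaks shared. Of the 11, 7 were also assigned to another gene, and with peaks of 1 gene only its ratio was -0.040. Slc2a8 had 2 and 5 (0.59), and the intestinal carriers Slc2a7 and Slc2a5, the latter for fructose, had 2 and 4 (0.41) and 3 and 5 (0.09). Neither of these 2 neighbours on chromosome 4 had a promoter peak. Slc2a4, Slc2a6 and Slc2a12 were under the length minimum. Slc2a4 (GLUT4), the insulin-responsive carrier of muscle and fat, had 3 and 2 peaks, and both knockout peaks were promoter peaks shared with the wild-type library. Slc2a6, a carrier of macrophages, had 3 and 2, and its second promoter peak had no knockout counterpart. Slc2a12 had 1 and 2 peaks that did not overlap, and its promoter peak (chromosome 10, 22644732 to 22645659) was in the knockout library alone.

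**Figure D4:**
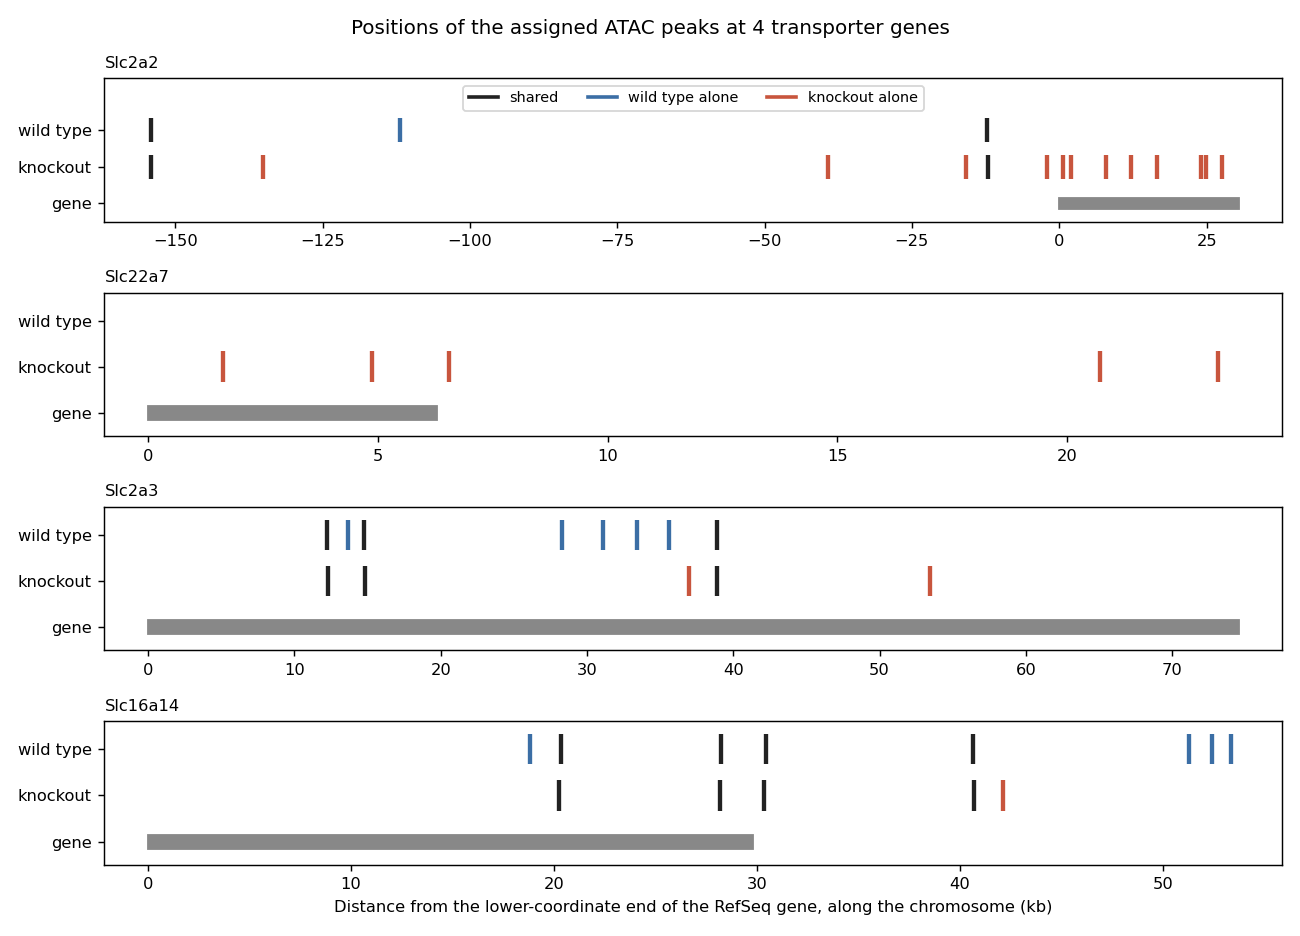
Assigned ATAC peaks of Slc2a2, Slc22a7, Slc2a3 and Slc16a14 along the chromosome (x axis, kb from the lower-coordinate end of the RefSeq gene, grey bar) in the wild-type and knockout library, black where a peak overlaps 1 of the other library. Slc2a2 has 8 knockout peaks and no wild-type peak in the gene, Slc22a7 has 0 wild-type peaks, and Slc2a3 and Slc16a14 have runs of peaks in the wild-type library alone.

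Among the sodium-coupled Slc5 carriers, Slc5a1 stood out. Slc5a1 (SGLT1), the glucose carrier of gut and kidney tubule (chromosome 5, 33104219 to 33162699), had 1 wild-type peak (0.827 kb) and 8 knockout peaks (6.93 kb), a ratio of 1.73. The wild-type peak, in the gene, was shared. Of the 8 knockout peaks 6 lay in the gene, and the annotation gave no promoter peak in either library. It passed the size rule in all 9 alternatives that gave it a value. Slc5a11, which carries myo-inositol, had 7 and 7 peaks (-0.39) with 4 shared, but 5 of the wild-type peaks and 2 of the knockout peaks lay in the gene. With peaks in or within 10 kb of the gene its ratio was -1.33, beyond the lower limit. Slc5a6, for biotin and pantothenate, had 2 and 4 (0.24), and Slc5a10 had 3 and 4 (-0.09). The remaining 4 were under the minimum. The iodide carrier Slc5a5 and the lactate carrier Slc5a12 each had 0 and 2 peaks. Slc5a9 had 2 and 2, and Slc5a3 had 1 and 2 with a promoter peak in both libraries that was also assigned to Mrps6.

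Knockout peaks outnumbered wild-type peaks at each of the 4 lactate and pyruvate carriers of Slc16. The same was true of 11 of the 13 Slc16 genes, these 4 included, and of 60.3% of all genes. The direction alone therefore does not set these 4 apart. Slc16a1 (MCT1; chromosome 3, 104638664 to 104658462) had 2 wild-type peaks (1.83 kb), both shared, and 7 knockout peaks (5.90 kb), a ratio of 0.89. Of the 7, 4 lay more than 10 kb outside the gene, up to 41.0 kb. Its ratio was -0.083 with peaks in or within 10 kb of the gene and -0.059 over promoters, while 5 of 10 alternatives put it beyond the size rule. Slc16a7 (MCT2) had 13 and 24 peaks (10.6 and 20.4 kb), a ratio of 0.49. Its promoter peaks did not overlap between libraries: the wild-type peak (chromosome 10, 125389936 to 125390530) lay 350 bp outside the RefSeq gene, and the knockout peaks at 125389059 to 125389884 and 125328070 to 125328901 lay inside it. Slc16a3 (MCT4), which exports lactate from glycolytic cells such as activated macrophages, had 2 and 3 peaks (0.01). Slc16a8 (MCT3), under the minimum, had 1 and 2.

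Slc16a10 (TAT1), for aromatic amino acids, had 13 and 16 peaks (-0.09), and 6 in each library were shared.

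Slc16a14, an orphan carrier (chromosome 1, 84905488 to 84935281), was opposite in direction, with 8 wild-type peaks (6.79 kb) and 5 knockout peaks (4.14 kb), a ratio of -0.99. The promoter peak and 3 distal peaks were shared. Of the 4 in the wild-type library alone, 3 lay beside each other beyond the gene, between 84956399 and 84959231. The creatine carrier gene Slc16a12 had 10 and 20 peaks (0.50) and Slc16a11 3 and 6 (0.39), each with a second promoter peak in the knockout library alone. Slc16a9 had 4 and 6 (0.14), and Slc16a6 (MCT7), which exports ketone bodies, 3 and 3 (-0.53) with 1 shared, its promoter peak also assigned to Arsg. Slc16a5 had 2 and 3 (-0.01), with a promoter peak (chromosome 11, 115461887 to 115462812) in the knockout library alone that was also assigned to Gm11695. Slc16a13 was under the minimum, with 1 and 2 peaks and a shared promoter peak.

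Among the organic cation carriers of Slc22, Slc22a3 (OCT3) had peaks in the knockout library alone. Slc22a3 (chromosome 17) had 0 wild-type and 8 knockout peaks (6.68 kb), 7 of them in the gene, with a promoter peak at 12507178 to 12508032. Of the 8, 6 were also assigned to another gene, and without those it was under the length minimum. Slc22a2 (OCT2), the renal relative, had 0 and 1.

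Of the 13 organic anion carriers 11 had more knockout peaks (84.6%, against 60.3% of all genes), and Slc22a13 and Slc22a20 had equal numbers. Slc22a7 (OAT2), a hepatocyte and kidney carrier (chromosome 17, 46432185 to 46438477), was without a wild-type peak and had 5 knockout peaks (4.52 kb), 3 of them in the gene, with a promoter peak at 46438282 to 46439205. A run of 8 genes on chromosome 19 (7673075 to 8628299), from Slc22a19 to Slc22a6, had 8 wild-type and 38 knockout peaks. Of the 8 wild-type peaks 7 were shared, and of the 38 knockout peaks 31 were in the knockout library alone. Slc22a26 had 0 and 9 peaks (8.04 kb), 5 of them in the gene, and Slc22a30, expressed in liver and kidney, 0 and 8 (6.95 kb), 4 in the gene. Promoter peaks were found in the knockout library alone at Slc22a26 (7802313 to 7803189), Slc22a27 (7965755 to 7966583) and Slc22a30 (8404839 to 8405688).

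Slc22a27 had 3 and 7 peaks (0.61), and all 3 wild-type peaks were shared. Slc22a8 (OAT3) and Slc22a6 (OAT1), the uptake carriers of the kidney tubule, had 4 and 9 peaks (0.61) and 0 and 5 peaks, without a promoter peak in either library. They shared 3 knockout peaks, and none of the 5 of Slc22a6 lay inside that gene. The wild-type peaks of Slc22a8 lay 12.4 to 72.4 kb from the gene, none inside it. Slc22a19, Slc22a28 and Slc22a29 were under the minimum, with 0 and 1, 0 and 2, and 1 and 2 peaks.

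**Figure D5:**
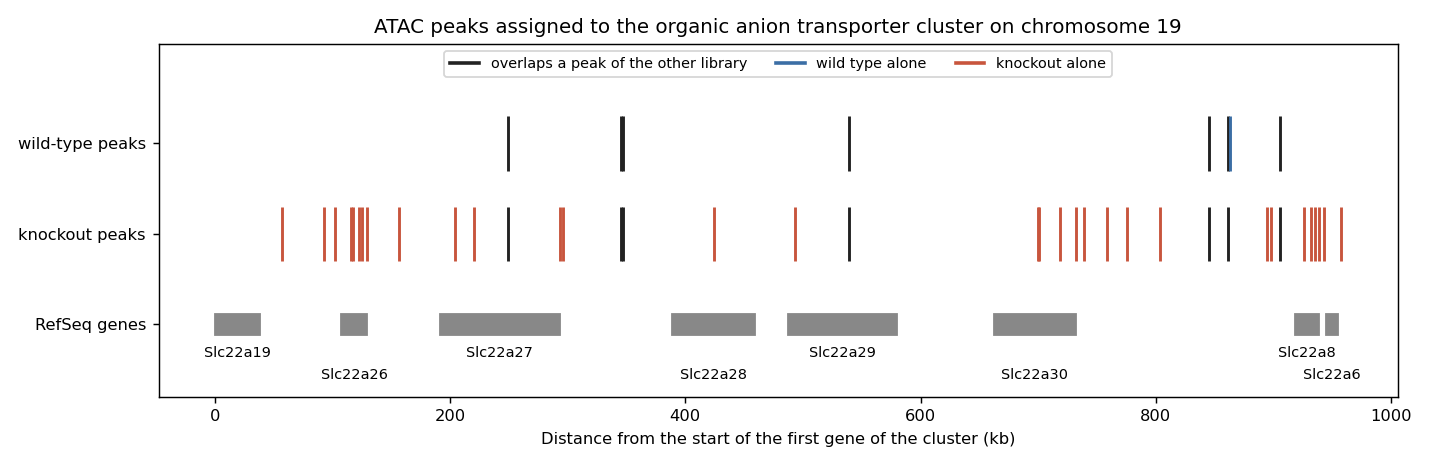
Peaks assigned to 8 Slc22 genes of chromosome 19 (x axis, kb from the start of the first gene; grey bars, RefSeq genes) in the wild-type and knockout library, black where a peak overlaps 1 of the other library and coloured where it does not. Of the 38 knockout peaks 7 have a wild-type counterpart, and of the 8 wild-type peaks 7 have a knockout counterpart.

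The remaining organic anion carriers lay closer to the median gene or had few peaks. Slc22a12 (URAT1), the renal urate carrier, had 4 and 6 peaks (0.09), with all 4 wild-type peaks shared. Slc22a13 had 3 and 3 (-0.41), all more than 10 kb outside the RefSeq gene and also assigned to another gene. Slc22a20 (OAT6), known from the olfactory mucosa, had 2 and 2 and Slc22a22 0 and 4 peaks (3.34 kb), both under the minimum.

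Of the 4 carnitine carriers, 3 had more knockout peaks (75%, against 60.3% of all genes) and 1 equal numbers. The 3 measured ratios (0.06 to 0.42) lay within the quartiles of all genes. Carnitine carries long-chain fatty acids into mitochondria. Slc22a5 (OCTN2), its main carrier (chromosome 11, 53864542 to 53891796), had 8 wild-type peaks (6.79 kb) and 14 knockout peaks (11.5 kb), a ratio of 0.29, and its promoter peak was shared. Its neighbour Slc22a4 (OCTN1), for ergothioneine, had 3 and 6 (0.42), with a shared promoter peak and another without a knockout counterpart. Slc22a21, between them, had 2 and 2, both shared. The cluster of these 3 genes had 12 wild-type peaks, 9 of them shared, and 21 knockout peaks. Slc22a16 had 8 and 11 (0.06), of which 7 and 11 lay more than 10 kb outside the RefSeq gene.

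Of the other Slc22 genes, Slc22a15 (chromosome 3, 101854443 to 101928220) had 3 wild-type peaks (2.59 kb), all shared, and 13 knockout peaks (11.8 kb), a ratio of 1.44. The 10 knockout peaks without a counterpart lay in the gene and up to 35.1 kb outside it. Slc22a23, an orphan carrier (chromosome 13, 34179158 to 34345275), had 12 and 29 peaks (10.0 and 25.3 kb), a ratio of 0.86, with 7 shared in each library. Slc22a18 had 3 and 7 (0.52), with all 3 wild-type peaks shared and a second promoter peak in the knockout library alone. Slc22a17, with 2 and 2, was under the minimum.

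Slc22a14 was the only member whose promoter peak was confined to the wild-type list, and that peak (chromosome 9, 119364951 to 119365870) lay 174.5 kb outside its RefSeq gene (119169453 to 119190430) and was also assigned to Xylb. All 11 of its wild-type peaks lay more than 10 kb outside the RefSeq gene and were also assigned to Oxsr1, Myd88, Acaa1a, Xylb or Slc22a13, as were 16 of its 17 knockout peaks. Its ratio of 0.13 therefore describes a region of several genes.

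Genes known from hepatocytes were set beside genes known from leukocytes. These lists, and that of kidney and gut below, were chosen with earlier results of these data known. Their shares beside those of all genes are a description and test nothing. The 12 hepatocyte transporters had 61 wild-type and 137 knockout peaks. By the size rule 4 of 11 measured genes were higher (36.4%, against 10.3% over all genes). Slc22a7 and Slc22a30 are 2 of these and, listed at 0 in the wild-type library, could be measured only by being higher. Of the 9 with a wild-type peak 2 were higher (22.2%), Slc2a2 among them, and 7 lay above the median gene. Over all measured genes with a wild-type peak 7.60% were higher. Of these 12, 7 had a promoter peak in both libraries, 3 in the knockout library alone and 2 in neither, Slc2a2 and Slc22a28. The 3 were 30% of the 10 genes with a promoter peak in either library, against 15.4% over all genes. The 4 leukocyte transporters, Slc2a1, Slc2a3, Slc2a6 and Slc16a3, had 21 peaks in each library and all 4 had a promoter peak in both. Of the 3 measured, none was higher or lower, and their median was 0.01. Beside these lists, 9 of the 10 hepatocyte markers were higher by the size rule (16 and 90 peaks), against 10.3% over all genes. Ttr, at -0.69, was not. Of the 9, the 4 listed at 0 in the wild-type library could be measured only by being higher. All 6 stellate cell markers were higher as well (8 and 57 peaks), with Des at 0 in the wild-type library, and 0 of the 4 endothelial markers. Of the 5 measured leukocyte markers 0 were higher and Itgam was lower (4.08% of all genes were lower). The part of cell composition in the gap between the lists was not tested. The 10 listed carriers known from kidney and gut, of which 8 had a peak, had 15 and 36 peaks. Of 6 measured, 2 were higher, Slc5a1 and Slc22a6 (33.3%, against 10.3% over all genes). Slc22a6, listed at 0 in the wild-type library, could be measured only by being higher. None of the 8 had a promoter peak in either library, and the same held for 7895 of all 25458 genes and 21 of the 58 transporter genes.

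Partners and enzymes of the same pathways were examined as a list of 26 genes, all with a peak and also chosen with earlier results known. They had 106 wild-type and 166 knockout peaks, and of 24 measured genes 3 were higher and 1 lower, with a median of 0.28. These shares (12.5% higher) are near those over all genes, 10.3% and 4.08%. Of the 3 higher genes, Pklr and Bbox1 are listed at 0 in the wild-type library and could be measured only by being higher. Slc47a1 was the only higher gene of the list with a wild-type peak, and 7.60% of all measured genes with such a peak were higher. The enzyme genes with 0 wild-type peaks were Pklr, the pyruvate kinase of hepatocytes, with 5 knockout peaks, and Bbox1, which makes carnitine, with 5. Slc47a1, which exports organic cations into bile and urine after their uptake, had 1 and 8 peaks (1.43). Hk3, the hexokinase of myeloid cells, had 10 and 5 peaks (-1.23). A promoter peak was found in the knockout library alone for 8 of the 25 list genes with a promoter peak (32.0%, against 15.4% over all genes), and the reverse for 0.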

How the data were processed

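Nuclei of bile duct-ligated livers were profiled with the 10x Genomics Multiome assay, with 1 ATAC library for each of 2 genotypes. Per the file headers, the authors ran cellranger-arc 2.0.2 on mm10 for each library separately. The deposited peak lists hold positions in bp, with no height or p-value, so the depth behind a single peak is unknown. No source used here gives the settings of the peak caller or how peaks were assigned to genes. In the values, promoter peaks lie from -1000 to 100 bp of the annotated start. The deposited per-barcode counts, raw per their values, served for the depth of called nuclei.

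Accessible length per gene, its log2 ratio and the overlap of peaks were computed as described above, with coordinates 1-based. Scripts were tested on simulated data and the overlap checked against bedtools 2.31.1. Scripts used pandas 2.3.3 and numpy 2.4.6 under Python 3.11.15, with matplotlib 3.10.9 for figures and scipy 1.17.1 for intervals. RefSeq (GRCm38.p6) rows matched all 58 symbols. Since neither genotype has a second library, no test was run and no p-value is given. Values are given for the 5 largest absolute ratios of each family, genes with a promoter peak in 1 library alone, genes with at least 4 peaks against 0, the hepatocyte and leukocyte lists and the 4 largest ratios of the partner list. The other members are named with their counts. The genes and lists were chosen with earlier results of these data known. There were 12 alternative settings and 1 more chosen after the data were seen (peaks in or within 10 kb of the RefSeq gene). Individual results of 2 of the 58 genes are not reported here, and both remain in all counts and medians.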

Additional observations from a re-analysis of the deposited data

How the results depend on the processing

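The count of 9 higher genes was 9 to 13 (7.13% to 13.6% of all genes) with pseudocounts of 0.5 and 2 kb, no minimum length, distal peaks or numbers of peaks. It was 16 of 41 measured members without centring (19.6% of all genes then being higher), 7 of 29 with peaks assigned to 1 gene (10.4%), 8 of 33 near the RefSeq gene (8.63%) and 6 of 34 with the knockout list limited to its widest peaks in the number of the wild-type list (9.85%). It was 4 of 22 with a 4 kb minimum (8.58%), where fewer genes are tested, and 0 of 37 with promoter peaks alone (1.92%), where 1 peak of usual width cannot reach the rule. The count of lower genes was 2 with a pseudocount of 0.5 kb (5.49% of all genes), a minimum of 4 kb (3.46%), distal peaks (5.26%), numbers of peaks (5.37%) or widest peaks (6.40%), and 1, Slc5a11, near the RefSeq gene (3.52%). The median over members was 0.82 without centring, 0.0076 over promoters and 0.31 near the RefSeq gene.

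The Slc22 median stayed positive in every setting run, at 0.28 over promoters, 0.87 near the RefSeq gene and 1.01 without centring. Part of that stability was built in. Slc22a3, Slc22a6, Slc22a7, Slc22a26 and Slc22a30 lack any wild-type peak, so wherever measured they could only raise the median. The Slc22 genes that do have a wild-type peak, 12 in the main setting with a median of 0.47, were not rerun alone in the alternatives. Whether their median keeps its sign there was not tested. The Slc2 median was -0.0072 with a 4 kb minimum and -0.040 with peaks of 1 gene, and 0.30 with a 2 kb pseudocount, 0.15 with no minimum, 0.81 uncentred, 0.0076 over promoters, 0.21 over distal peaks and 0.11 near the gene. That of Slc5, over 4 genes, was -0.41 with a 4 kb minimum, -0.019 over promoters and -0.13 over distal peaks, and 0.22 with no minimum, 0.47 uncentred, 0.45 with peaks of 1 gene, 0.34 with widest peaks and 0.36 near the gene. That of Slc16 was -0.015 over promoters, and 0.30 with a 4 kb minimum, 0.53 uncentred, 0.40 over distal peaks, 0.41 with peaks of 1 gene, 0.32 with widest peaks and 0.0097 near the gene. Except where named, the cause was not tested. Over promoters alone Hk3, called lower, was at 0.012. Some uncalled genes also changed sign there, such as Slc22a14 (-0.95), Slc2a9 (0.014) and Slc16a1 (-0.059). With the widest knockout peaks, 46.3% of wild-type peaks were shared and 13 genes had a wild-type promoter peak alone, since knockout peaks were removed. With peaks of 1 gene, the latter number was 0, as Slc22a14 dropped out. The shares were within their intervals with 50% overlap.

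No paired analysis was possible because each genotype had 1 ATAC library, which also left no replicate to omit. Depth was 2.06 times higher in the knockout library and limits any reading of an absent wild-type peak: a gene listed at 0 may have had signal below the caller's threshold.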
